A study of Mus musculus with 6 samples.

Results

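The nuclear genes of respiratory complexes II to V were examined in mRNA-seq of whole mouse ovary. They are 38 genes matched by NCBI Gene ID, out of 45679 genes in the files that carry a symbol: 4 of complex II, 9 of complex III, 10 of complex IV and 15 of complex V. Ovaries of wild type BDF1 mice, a hybrid laboratory strain, fall by their labels into 3 groups of 2 libraries: mice aged 8 weeks injected with PBS (young PBS), mice aged 65 weeks injected with PBS (old PBS) and mice aged 65 weeks injected with MIT-001 (old MIT-001). All groups received injections into the abdomen for 7 days, with MIT-001, a scavenger of reactive oxygen species targeted to mitochondria, at 0.5 mg/kg. The study used 20 young and 40 old mice, and since no label ties a library to particular animals or gives their number, p-values measure only the spread between these libraries.

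Electrons from NADH and succinate pass along the respiratory chain of the inner mitochondrial membrane to oxygen, and the proton gradient this builds drives ATP synthesis. Complex II (succinate dehydrogenase) feeds electrons from succinate to ubiquinone, complex III (cytochrome bc1) passes them to cytochrome c, complex IV (cytochrome c oxidase) passes them to oxygen, and complex V is the ATP synthase. Complex II is encoded wholly in the nucleus, whereas complexes III, IV and V also hold subunits encoded by mitochondrial DNA. Oocytes are rich in mitochondria, and steroid-producing ovarian cells begin hormone synthesis in mitochondria.

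The libraries were of like depth, at 6.34 to 7.14 gigabases of aligned reads implied by the deposited coverage and FPKM, and 14347 to 16340 genes per library reached a TPM of 1 (an abundance scaled for transcript length and for the library total). Among genes with an FPKM above 1, only 31.3% to 32.9% per library shared the ratio of coverage to FPKM that this depth rests on. Cell type markers went against the age labels. The summed level of 10 oocyte genes was 315 and 36.5 TPM with the label young PBS, 467 and 499 TPM with the label old PBS, and 87.2 and 44.1 TPM with the label old MIT-001, and none of the 10 was at 0 in any library. For 9 granulosa cell genes the sums were 2728 and 2613, 5594 and 7042, and 2009 and 2977 TPM in the same order, and for 6 plasma cell genes they were 1764 and 399, 145 and 140.1, and 1188 and 239.6 TPM. Group names below are therefore those of the labels only. Because each library is whole tissue, fewer cells of a type and less RNA per cell cannot be told apart.

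Many respiratory genes carry promoter sites for NRF1 and for ETS factors such as GABPA, and some for YY1 or the estrogen-related receptor ESRRA, so windows from 250 bases before to 50 bases after the RefSeq gene start (assembly GRCm38.p6) were searched on both strands. A window was held for 30 of the 38 genes. The NRF1 letters GCATGCGC were found in 7 of the 30 (23.3%), against 3.05% of the 27025 genes with a window. The ETS letters CCGGAAGT were found in 4 (13.3%) against 4.31% of all genes with a window, the ESRRA letters TCAAGGTCA in 2 (6.67%) against 0.466%, and the YY1 letters AAGATGGCG in 2 (6.67%) against 1.64%. At least 1 match was found in 14 of the 30 genes, and 1 gene, Uqcr11, held 2 different motifs. A match is a description of the letters only. The NRF1 letters can be read on both strands at overlapping positions, which were counted once per gene.

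The stretches below end just before the RefSeq start (Atp5g3 and Atp5g2 have RefSeq starts used here that lie within the span of the gene in the files) and are given 5′ to 3′ on the minus strand, with the matched letters in capitals. They show the 2 genes with the most negative fold changes in old MIT-001 against old PBS, Atp5g3 and Cox6a1, beside Atp5g2, which encodes the same subunit as Atp5g3, and Atp5k, the shortest transcript among the 38. Cox6a1, Atp5g2 and Atp5k carry the NRF1 letters, overlapping on both strands, and Atp5g3 carries the ESRRA letters on the opposite strand.
Cox6a1 chr5:115348959-115349158: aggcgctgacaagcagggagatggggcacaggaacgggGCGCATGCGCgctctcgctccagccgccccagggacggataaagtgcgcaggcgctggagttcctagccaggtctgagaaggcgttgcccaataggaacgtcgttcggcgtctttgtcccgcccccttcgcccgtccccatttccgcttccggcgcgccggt
Atp5g3 chr2:73911327-73911426: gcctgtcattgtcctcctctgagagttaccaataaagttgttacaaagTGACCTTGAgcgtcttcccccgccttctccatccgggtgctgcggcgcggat
Atp5g2 chr15:102671048-102671147: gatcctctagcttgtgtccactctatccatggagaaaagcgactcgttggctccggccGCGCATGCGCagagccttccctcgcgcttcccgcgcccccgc
Atp5k chr5:108434400-108434499: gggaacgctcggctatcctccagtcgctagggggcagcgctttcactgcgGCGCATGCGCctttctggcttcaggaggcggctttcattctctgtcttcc

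All 38 genes were abundant and all passed the filter, which asked for a TPM of 1 or more in no fewer than 2 libraries. Their mean TPM over the 6 libraries ranged from 172 for Sdhc to 1364 for Atp5b, and each lay above the 94.4th percentile of the 16473 genes tested. Within complex II, Sdhb, the iron-sulfur subunit, had the highest mean at 299.98 ± 44.1 TPM (SD, n = 6) and Sdhc, a membrane anchor, the lowest at 172 ± 14.7 TPM. In complex III the hinge protein gene Uqcrh (542 ± 163 TPM) was highest and the core protein gene Uqcrc2 (211 ± 20.1 TPM) lowest. In complex IV the range ran from Cox7a2, a small subunit, at 208 ± 41.3 TPM to Cox4i1, the subunit that binds ATP as a regulator, at 1062 ± 206 TPM. In complex V it ran from Atp5k, the e subunit, at 199 ± 60.6 TPM to Atp5b, the catalytic beta subunit, at 1364 ± 207 TPM. Within a library, the highest and lowest gene of a complex were 1.41 to 2.53 times apart in complex II, 2.09 to 4.34 in complex III, 4.85 to 7.70 in complex IV and 6.23 to 11.0 in complex V, on the TPM scale.

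**Figure D1:**
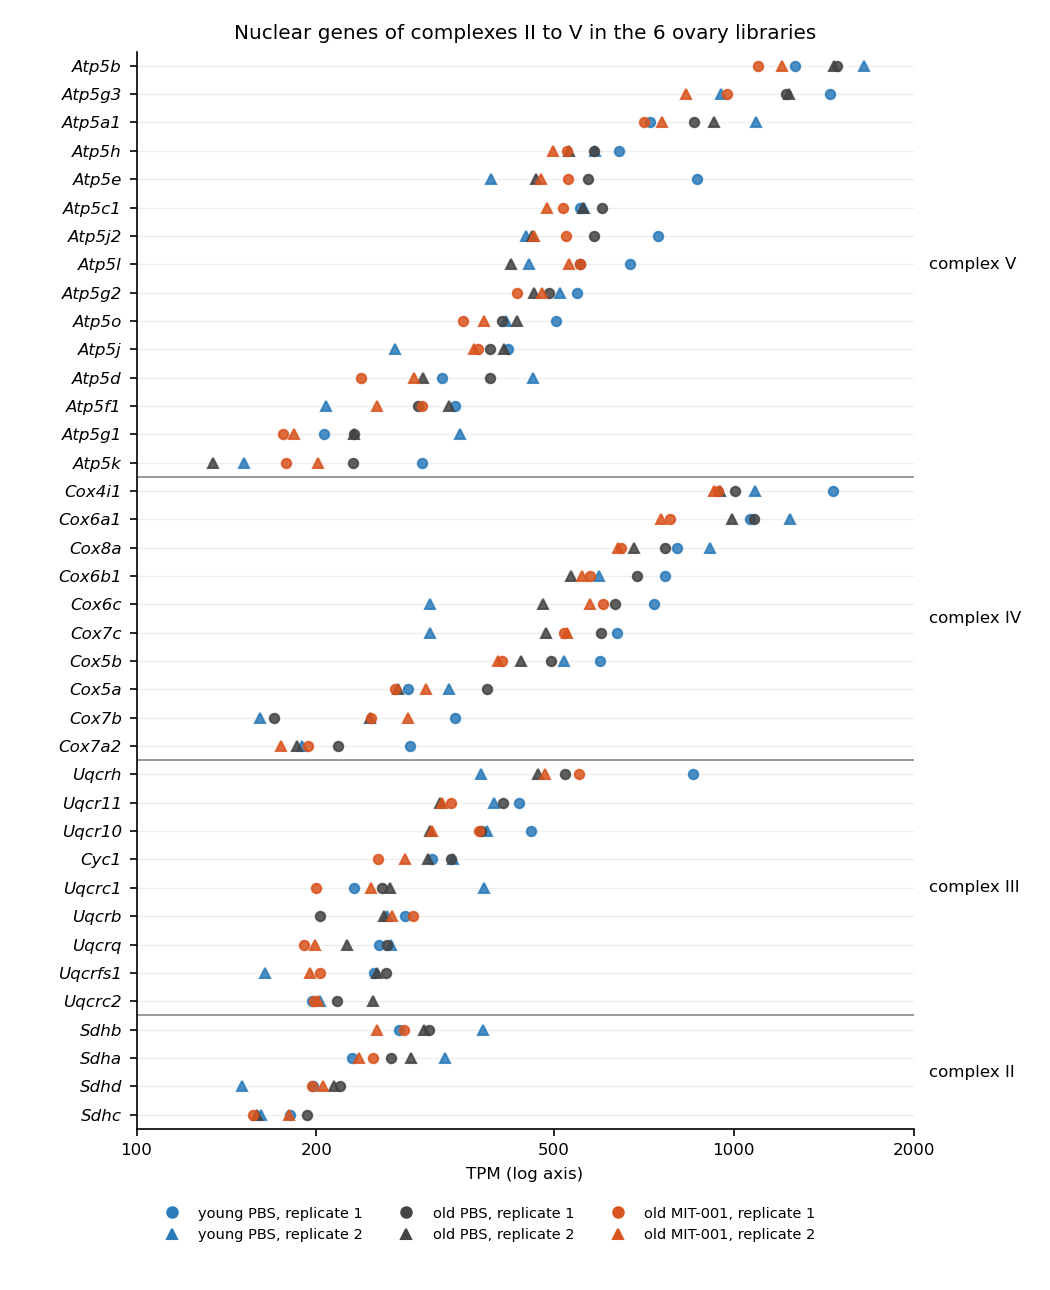
TPM (log axis) of each of the 38 genes in the 6 libraries, 1 symbol per library, ordered by mean within each complex. Both old MIT-001 libraries lie near the low end for many genes, and the 2 young PBS libraries (blue) are often the farthest apart.

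The levels varied less across libraries than those of other genes: the median coefficient of variation over the 6 libraries was 15.4% for the 38 genes (7.30% for Atp5c1 to 30.4% for Atp5k), against 23.8% for 881 other genes of like level and 31.6% for all genes tested. This is a description of these libraries and was not tested. The highest library was a young PBS library for 31 of the 38 genes, an old PBS library for 6 and an old MIT-001 library for 1, Uqcrb. The lowest was an old MIT-001 library for 20, a young PBS library for 12 and an old PBS library for 6.

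Summed over the 38 genes, these transcripts made up 2.07% and 1.80% of all TPM in young PBS, 1.88% and 1.73% in old PBS, and 1.61% and 1.59% in old MIT-001. Both old MIT-001 libraries were thus below the other 4, while young PBS and old PBS overlapped. Complex V, the largest part, held 0.956% and 0.850%, 0.891% and 0.839%, and 0.748% and 0.741% in the same order. Complex IV held 0.699% and 0.566%, 0.604% and 0.527%, and 0.519% and 0.515%. Complex III held 0.328% and 0.278%, 0.285% and 0.266%, and 0.260% and 0.251%. In complexes III, IV and V both old MIT-001 libraries were below every other library. Complex II held 0.0883% and 0.102%, 0.0987% and 0.0964%, and 0.0882% and 0.0874%. There too both old MIT-001 libraries were lowest, but the first young PBS library lay just above them.

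**Figure D2:**
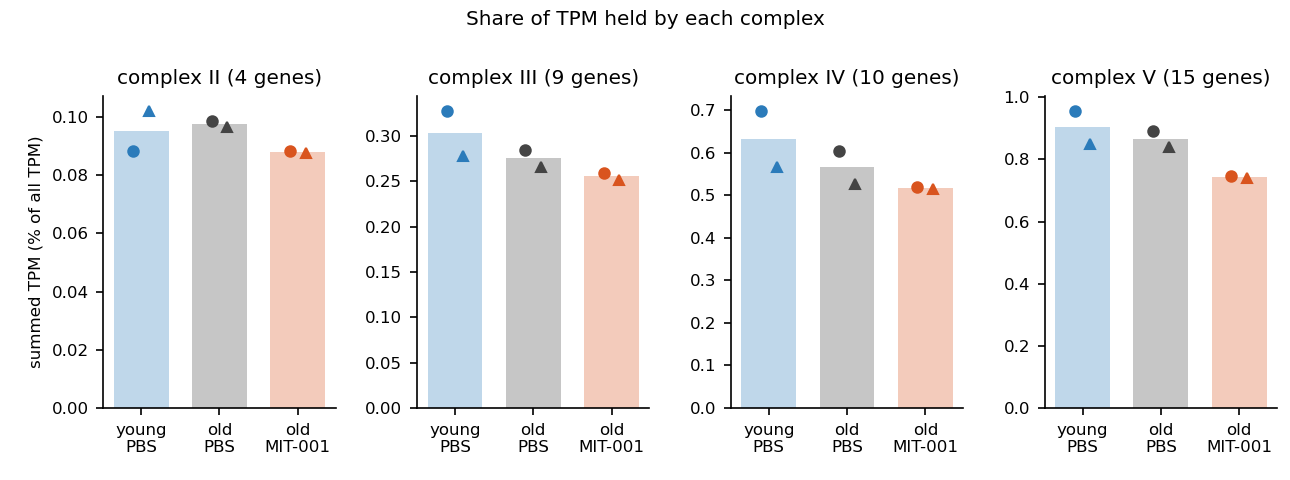
Summed TPM of each complex's nuclear genes as a percentage of all TPM: bars from 0 are means of 2 libraries, symbols are the libraries (circle, replicate 1; triangle, replicate 2), and each panel has its own vertical scale. The old MIT-001 libraries are lowest in each complex, in complex II by little, and are at 0.515% to 0.519% for complex IV.

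The first comparison asked how these genes differed between the libraries labelled old PBS and young PBS, the age contrast of the study. The differences were small and of both signs: 14 genes had higher and 24 lower mean values in old PBS, the median log2 fold change was -0.14, and the extremes were 0.34 for Uqcrfs1 and -0.37 for Cox4i1. Over all genes tested the median was 0.23, and over the 919 genes with a mean TPM at or above the lowest of the 38 it was 0.01. By limma on log2(TPM + 1), with Benjamini-Hochberg adjustment over all genes tested, 0 of the 38 were called at an adjusted p below 0.05 (0.0364% of all genes were) and 0 were at an unadjusted p below 0.05 (18.1% of all genes). The latter count was 8 without the first young PBS library (6 higher and 2 lower; 33.2% of all genes), 5 without the second (24.3%) and 4 after median centring (12.4%). Adjusted p-values of the 38 lay between 0.459 and 0.996. Scaling moved the median of the 38, to -0.30 with FPKM and -0.47 with log2 values centred per library, and that of complex II from 0.02 to -0.13 and -0.30. Without the first young PBS library the median of the 38 was -0.0066, and without the second old PBS library -0.012.

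Uqcrfs1, the Rieske iron-sulfur protein of complex III (NCBI Gene 66694, chr13:30540312-30545316, mm10), was at 250.2 and 164 TPM in young PBS and at 262 and 253 TPM in old PBS. Both old PBS libraries lay above both young PBS libraries, though the first young PBS library was close to them, and the log2 fold change was 0.34 ± 0.25 (SE; limma adjusted p = 0.512). Sdhd, a membrane anchor of complex II (chr9:50596340-50603849), was at 197 and 150.5 TPM against 219 and 214 TPM, again without overlap, with a log2 fold change of 0.33 ± 0.21 (limma adjusted p = 0.459). Uqcrc2, a core protein of complex III, was also higher in old PBS without overlap, at 197 and 203 TPM against 217 and 249 TPM. These were the 3 of 38 genes that were higher without overlap, where 38.1% of all genes were.

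Cox4i1 (NCBI Gene 12857, chr8:120668225-120674209) was at 1466 and 1084 TPM in young PBS and at 1006 and 947 TPM in old PBS. The values did not overlap, but the young PBS libraries were farther apart than the group means, and the log2 fold change was -0.37 ± 0.28 (limma adjusted p = 0.520). Uqcr10, a small subunit of complex III (chr11:4701968-4704344), was at 458 and 386 TPM against 377 and 310.0 TPM, with a log2 fold change of -0.30 ± 0.24 (limma adjusted p = 0.546). The other genes lower without overlap were Uqcrb, Cox5b, Cox8a, Atp5g2 and Atp5h. Under quantile normalization 6 of the 38 (15.8%) were lower in this way, where 19.3% of all genes were. On the TPM scale the count was 7 of the 38 (18.4%), where 11.0% of all genes and 12.7% of the 919 were. That count was 17 (29.7% of all genes) without the first young PBS library, 22 (25.3%) without the second and 18 (19.1%) without the first old PBS library.

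Several small subunits had wide errors in this comparison. The young PBS libraries differed widely in Cox7c and Atp5k, and for Atp5k the old PBS libraries did too. Cox7c (complex IV, chr13:86044798-86046795) was at 638 and 309.7 TPM in young PBS and at 600.3 and 485 TPM in old PBS. Its log2 fold change was 0.28 ± 0.37 (limma adjusted p = 0.742), and it was -0.24 without the second young PBS library. Atp5k (complex V, chr5:108433246-108434399) was at 301 and 151 TPM against 231 and 134 TPM, with a log2 fold change of -0.28 ± 0.41 (limma adjusted p = 0.768). Without the first young PBS library it was 0.22, and without the second old PBS library 0.11. The direction of both genes thus rested on single libraries.

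Atp5b and Sdha, catalytic subunits of complexes V and II, had fold changes near 0 in this comparison. Atp5b was at 1268 and 1651 TPM in young PBS and at 1492 and 1471 TPM in old PBS, with a log2 fold change of 0.03 and a 95% interval from -0.67 to 0.74. Sdha, the flavoprotein that oxidises succinate, was at 229.8 and 328 TPM against 266 and 288 TPM, with a log2 fold change of 0.01 and an interval from -0.58 to 0.60. In both genes the old PBS libraries lay between the young PBS libraries. The 95% intervals of 31 of the 38 genes lay wholly between log2 fold changes of -1 and 1, and their half-widths had a median of 0.63.

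The second comparison asked how the genes differed between old MIT-001 and old PBS, the treatment contrast. Values were lower in old MIT-001 for 31 of the 38 genes: all 4 of complex II, 6 of 9 of complex III, 8 of 10 of complex IV and 13 of 15 of complex V. The median log2 fold change was -0.15, against 0.03 for all genes tested and -0.06 for the 919 genes of like level. Again 0 genes were called (0.0182% of all genes were) and 0 were at an unadjusted p below 0.05 (11.8% of all genes). The latter count was 5, all lower, with only the 4 libraries compared (19.4% of all genes) or without either young PBS library. The median was -0.24 after median centring and -0.083 without the first old PBS library. Both old MIT-001 libraries lay below both old PBS libraries for 21 of the 38 genes (55.3%), where 24.2% of all genes and 35.1% of the 919 did. They lay above for 2, Uqcrb and Cox7b, where 27.2% of all genes did. Without the second old PBS library the count of genes lower without overlap was 33, where 34.9% of all genes were.

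Atp5g3, the most abundant of the genes for the c subunit of the ATP synthase ring (NCBI Gene 228033, chr2:73908447-73912464), was at 1224 and 1239 TPM in old PBS and at 974 and 832 TPM in old MIT-001. Its log2 fold change was the most negative of the 38, at -0.45 ± 0.31 (limma adjusted p = 0.691, 95% interval from -1.21 to 0.31). Cox6a1, the widely expressed isoform of complex IV subunit 6a (chr5:115345623-115348958), was at 1081 and 994 TPM against 782 and 756 TPM. Its log2 fold change was -0.43 ± 0.25 with an unadjusted p of 0.139, the smallest of the 38, and an adjusted p of 0.614 in limma. Atp5d, the delta subunit (chr10:80138698-80145828), was at 391 and 302 TPM against 238 and 292 TPM, with a log2 fold change of -0.38 ± 0.28 (limma adjusted p = 0.711). In all 3 genes the groups did not overlap, and for Atp5d the gap between them was narrow.

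Other subunits, named after their values were seen, had values of the same direction. Atp5b was at 1098 and 1206 TPM in old MIT-001, below 1492 and 1471 TPM in old PBS, with a log2 fold change of -0.36 ± 0.29 (limma adjusted p = 0.758). Uqcrfs1 was at 203 and 195 TPM, below 262 and 253 TPM, at -0.37 ± 0.25 (limma adjusted p = 0.691). Cyc1, cytochrome c1 of complex III, was at 254 and 282 TPM, below 336 and 308 TPM, at -0.26 ± 0.20 (limma adjusted p = 0.743). None of these differences passed the test, although the libraries of the groups were separate. The SE of a gene also takes in its young PBS libraries, which for Atp5b were at 1268 and 1651 TPM. Atp5a1, the alpha subunit, and Sdha and Sdhb, the subunits of complex II that carry FAD and iron-sulfur centres, were likewise lower in both old MIT-001 libraries.

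Few genes had higher values in old MIT-001. Cox7b, a small subunit of complex IV (chrX:106015700-106022450), was at 170.2 and 246 TPM in old PBS and at 247 and 285 TPM in old MIT-001. The groups were separate by less than 1 TPM, and the log2 fold change was 0.37 ± 0.39 (limma adjusted p = 0.852). Uqcrb, the subunit of complex III that helps to hold ubiquinone (chr13:66900576-66905350), was at 203 and 259.6 TPM against 290.0 and 268 TPM, with a log2 fold change of 0.28 ± 0.22 (limma adjusted p = 0.752). Atp5l, the g subunit (chr9:44913248-44920742), was at 552 and 424 TPM against 552 and 530.2 TPM and overlapped. Its log2 fold change of 0.16 ± 0.29 (limma adjusted p = 0.934) became -0.03 without the second old PBS library.

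**Figure D3:**
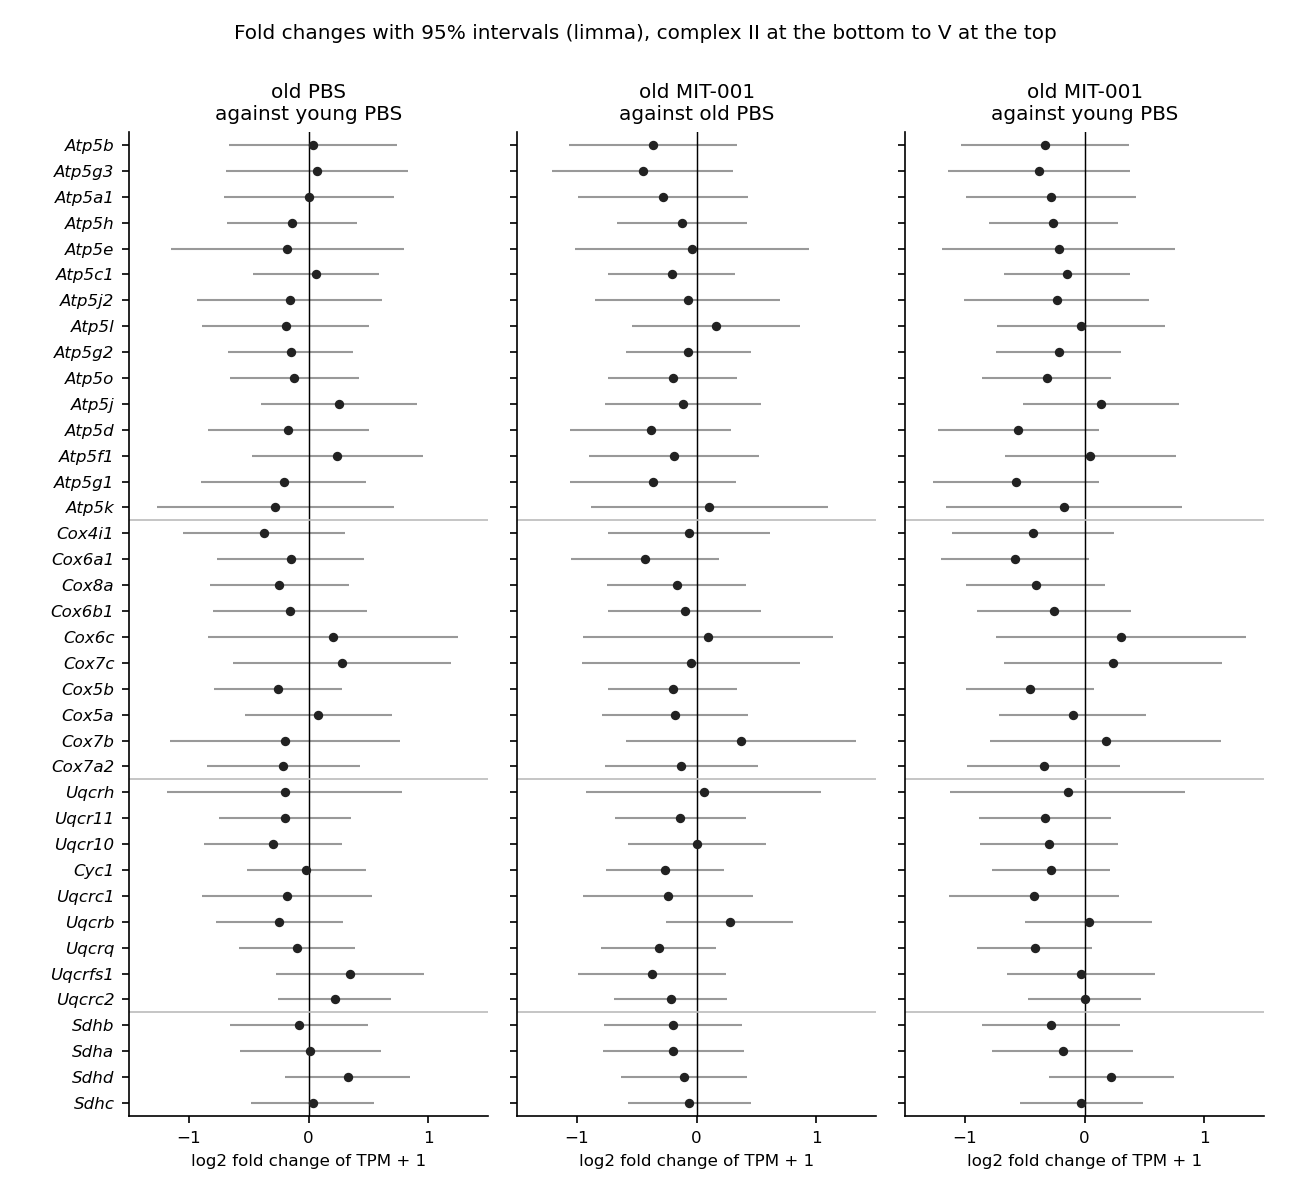
Log2 fold change of TPM + 1 (horizontal axis) with its 95% interval from limma for each of the 38 genes, in the 3 comparisons, with complex II at the bottom and complex V at the top. Every interval includes 0, and in old MIT-001 against old PBS the points of 31 genes lie left of 0.

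The third comparison set old MIT-001 against young PBS. It shares its libraries with the comparisons above, so the 3 sets of values are not independent. Values were lower in old MIT-001 for 31 of the 38 genes, with a median log2 fold change of -0.24, against 0.24 for all genes tested and -0.07 for the 919 of like level (-0.40 for the 38 with FPKM and -0.66 after median centring). Called genes numbered 0 (0.0% of all genes were called) and genes at an unadjusted p below 0.05 numbered 0 (17.9% of all genes). The latter count depended on scaling and on single libraries: it was 18, all lower, after median centring (14.2% of all genes) and 5 with FPKM (13.5%), and 16 without the first young PBS library (6 higher and 10 lower; 33.1%) and 9 without the second (25.7%). Lower without overlap were 16 genes (42.1%), where 6.56% of all genes and 16.1% of the 919 were. None was higher without overlap, where 37.3% of all genes were. Without the second young PBS library 30 genes were lower without overlap, where 22.6% of all genes were.

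Cox6a1 had the most negative fold change. It was at 1067 and 1241 TPM in young PBS and at 782 and 756 TPM in old MIT-001, a log2 fold change of -0.58 ± 0.25 (95% interval from -1.20 to 0.04, unadjusted p = 0.0607, limma adjusted p = 0.300). Atp5g1, the least abundant gene for the c subunit (chr11:96072793-96075694), was at 206 and 348 TPM against 176 and 184 TPM, at -0.57 ± 0.28 (limma adjusted p = 0.361). Atp5d was at 325 and 461 TPM against 238 and 292 TPM, at -0.55 ± 0.28 (limma adjusted p = 0.364). The 3 genes did not overlap between the groups, and the young PBS libraries of Atp5g1 and Atp5d differed widely.

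The largest positive fold changes belonged to Cox6c, Cox7c and Sdhd, and each overlapped. Cox6c, a small subunit of complex IV (chr15:35931976-35938246), was at 735 and 310.5 TPM in young PBS and at 604 and 574 TPM in old MIT-001, so both treated libraries lay between the young ones. Its log2 fold change was 0.30 ± 0.43 (limma adjusted p = 0.793), and -0.32 without the second young PBS library. Cox7c was at 0.23 ± 0.37 (limma adjusted p = 0.817) and likewise at -0.29 without that library. Sdhd was at 0.22 ± 0.21 (limma adjusted p = 0.677). The 95% intervals lay wholly between -1 and 1 for 24 of the 38 genes, so larger changes lie outside the intervals for those genes and within them for the rest.

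In 4 genes, picked after their values were seen, the libraries of all 3 groups were separate and in the same order, young PBS above old PBS above old MIT-001. They made 10.5% of the 38, where 0.419% of all genes and 1.74% of the 919 genes of like level had this order. Cox4i1 was at 1466 and 1084, 1006 and 947, and 942 and 927 TPM. Cox5b, a zinc-binding subunit of complex IV (chr1:36691487-36693388), was at 598 and 521, 495 and 441, and 409 and 403 TPM. Cox8a, the smallest subunit of complex IV (chr19:7215158-7217616), was at 804 and 912, 768 and 681, and 648 and 641 TPM. Atp5h, the d subunit of the ATP synthase stalk (chr11:115415691-115419919), was at 643 and 585, 584 and 530.2, and 526 and 498 TPM, so its neighbouring groups lay less than 5 TPM apart. The 3 comparisons share these libraries. None of the 4 was called in any of them by limma, and the lowest adjusted p among them was 0.346, for Cox5b in old MIT-001 against young PBS (limma log2 fold change -0.46 ± 0.22).

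Uqcrq, a small subunit of complex III, overlapped between young PBS, at 254 and 267 TPM, and old PBS, at 263 and 225 TPM, and was at 191 and 199 TPM in old MIT-001, below all 4 other libraries. Its log2 fold change was -0.32 ± 0.20 against old PBS and -0.42 ± 0.20 against young PBS (limma adjusted p = 0.641 and 0.340). Atp5c1, the gamma subunit that turns within the catalytic head, and Atp5o, the subunit that joins head and stalk, also had both old MIT-001 libraries lowest, at 518 and 487 TPM and at 352 and 382 TPM. The other 4 libraries were at 553 TPM or above for Atp5c1 and at 409.7 TPM or above for Atp5o. In Cox5a, Cox6b1, Cox7a2, Uqcr11, Sdhc, Atp5f1 (the b subunit) and Atp5j2 (the f subunit) old MIT-001 and old PBS overlapped, and Atp5j (coupling factor 6) was at 373 and 368 TPM in old MIT-001, lower without overlap than 391 and 412 TPM in old PBS.

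The 3 genes Atp5g1, Atp5g2 and Atp5g3 encode the same mature c subunit with different import sequences, so their shares of the summed c subunit TPM were compared. Atp5g3 held 65.8% and 52.5% in young PBS, 62.9% and 64.1% in old PBS, and 61.5% and 55.7% in old MIT-001. Atp5g2 held 24.8% and 28.3%, 25.2% and 23.9%, and 27.4% and 32.0%. Atp5g1 held 9.37% and 19.2%, 11.88% and 11.98%, and 11.1% and 12.3%. The order of the 3 genes was the same in all 6 libraries. For Atp5g1 and Atp5g3 the young PBS libraries were farther apart than any group means, and for Atp5g2 both old MIT-001 libraries lay above both old PBS libraries, while young PBS overlapped with both groups.

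Replicates differed most in young PBS, and the difference went with transcript length. Between the 2 young PBS libraries 15 of the 38 genes differed more than 1.5-fold, against 1 gene in old PBS, Atp5k, and 0 in old MIT-001. The median absolute log2 difference was 0.45, 0.17 and 0.11 in the 3 groups. The largest were in small subunits: Cox6c was at 735 and 310.5 TPM, Uqcrh at 854 and 378 TPM, and Atp5e, the epsilon subunit of ATP synthase, at 868 and 392 TPM. In the opposite direction Atp5g1 was at 206 and 348 TPM and Uqcrc1, a core protein of complex III, at 232 and 381 TPM. Of the 19 genes with transcripts shorter than the median of the 38, 16 were higher in the first young PBS library, as were 8 of the 19 longer ones.

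Spliced transcript lengths of the 38 genes (GENCODE M21) ran from 371 bases for Atp5k to 3171 for Sdhc, and 19 genes lay on either side of the median of 807. Across the 38 genes, the Spearman correlation of length with the log2 difference of replicate 2 minus replicate 1 was 0.51 in young PBS, 0.56 in old PBS and 0.35 in old MIT-001. Across 822 other genes of like level with a length it was 0.41, 0.20 and 0.14. For old MIT-001 against old PBS, length and log2 fold change had a Spearman correlation of -0.57 across the 38 genes and -0.15 across the 822. The 19 longer genes had a median of -0.21, with 18 lower, and the 19 shorter genes a median of -0.07, with 13 lower. For old PBS against young PBS the correlation was 0.40 (0.39 across the 822), and -0.09 (0.30) for the comparison of old MIT-001 with young PBS. Genes are not independent replicates, all points of a correlation share the same libraries, and the part of transcript length in the results was not tested.

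**Figure D4:**
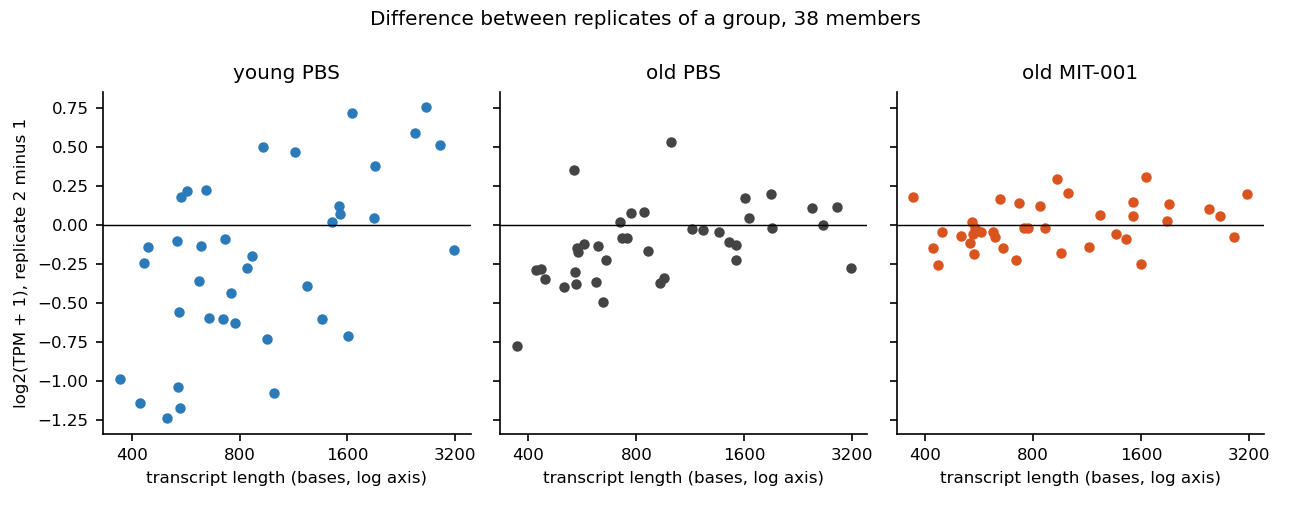
Log2(TPM + 1) in replicate 2 minus replicate 1 (vertical axis) against transcript length in bases (log axis) for the 38 genes, 1 panel per group. The young PBS points run from -1.24 (Cox6c) to 0.75 (Atp5g1) and tend to rise with length, with exceptions, and the old MIT-001 points stay between -0.26 and 0.30.

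The libraries also differed in the levels of cell type markers. Markers were set beside the summed level of the 38 genes (1.61% and 1.59% of TPM in old MIT-001, 1.88% and 1.73% in old PBS). In old MIT-001 against old PBS, 10 of 10 oocyte genes and 9 of 9 granulosa genes were lower, with median log2 fold changes of -2.67 and -1.39. All 8 macrophage genes (213 and 293 TPM summed in old PBS, 746 and 584 TPM in old MIT-001) and all 6 surface epithelium genes (163 and 157 TPM, 608 and 647 TPM) were higher, with medians of 1.25 and 2.08. Between the young PBS libraries, which differed most in small subunits, 8 theca and luteal steroidogenic genes summed to 20254 and 53089 TPM. For 6 genes of brown fat and striated muscle, tissues dense in mitochondria, the sums were low: 6.59 and 2.44 TPM in young PBS, 1.74 and 0.73 TPM in old PBS, and 13.4 and 3.61 TPM in old MIT-001. Both old MIT-001 libraries were above both old PBS libraries. The highest single value was 6.08 TPM for Tnnt3, a troponin of fast muscle, in the first old MIT-001 library, while Ucp1, the brown fat uncoupling protein, did not exceed 0.06 TPM and Myh4, a fast muscle myosin, did not exceed 0.05 TPM. The part of the other cell types in the results was not tested.

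Complex IV has isoforms of particular tissues, and 7 such genes were read. Cox4i2, the lung and hypoxia isoform, was at 21.0 and 11.4 TPM in young PBS, at 23.2 and 19.0 TPM in old PBS and at 12.1 and 5.72 TPM in old MIT-001. It was lower in old MIT-001 than in old PBS without overlap (log2 fold change -1.23 ± 0.43, unadjusted p = 0.0296, limma adjusted p = 0.351). Cox6b2, the testis isoform, was at 40.2 and 21.2, 24.6 and 14.2, and 38.6 and 42.0 TPM, and was higher in old MIT-001 than in old PBS without overlap (1.06, unadjusted p = 0.0332, limma adjusted p = 0.363). Neither passed the adjustment. Cox7a1, the heart and muscle isoform, was at 46.1 and 29.1, 39.8 and 29.4, and 25.7 and 23.1 TPM. Cox6a2, Cox7b2 and Cox8b did not exceed 1.28 TPM in any library, and Cox8c was listed at 0 in all 6. The widely expressed isoforms thus made up most of the nuclear complex IV transcripts, with Cox4i1 at a mean of 1062 TPM.

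The subunits encoded by mitochondrial DNA had values in the other direction from most of their nuclear partners in the treatment contrast. In old MIT-001 against old PBS, 6 of 6 (mt-Cytb, mt-Co1, mt-Co2, mt-Co3, mt-Atp6 and mt-Atp8) had higher values, with a median log2 fold change of 0.44 and a smallest unadjusted p of 0.225, where 31 of 38 nuclear genes had lower values. Their sum was 36921 and 43125 TPM in young PBS, 31891 and 43866 TPM in old PBS, and 51586 and 47721 TPM in old MIT-001. The ratio of the median mitochondrial to the median nuclear level was 17.0 and 15.8, 16.2 and 18.9, and 23.3 and 22.7 for complex III, where both old MIT-001 libraries were highest. For complex IV it was 11.5 and 19.2, 9.96 and 13.5, and 18.3 and 13.8, so both old MIT-001 libraries lay above both old PBS libraries, the second by little, and young PBS overlapped with both groups. For complex V it was 5.41 and 11.35, 5.32 and 13.26, and 14.71 and 13.24. Both old MIT-001 libraries thus lay above both young PBS libraries, while old PBS overlapped with both groups. TPM is a share of a fixed total, so a larger share of mitochondrial transcripts leaves less for all others. With the mitochondrially encoded genes left out before rescaling, the median of the 38 nuclear genes was -0.13, and 21 of them were lower without overlap, where 23.0% of all genes were.

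Nuclear subunits of complex I, 36 genes, had medians close to those of the 38 genes. In old PBS against young PBS 28 of 36 were lower (median log2 fold change -0.10), in old MIT-001 against old PBS 26 (median -0.11) and in old MIT-001 against young PBS 31 (median -0.19). None was called in any comparison. Other genes of mitochondrial mass, 12 in number and including Vdac1 (the outer membrane channel) and Cs (citrate synthase), were mostly higher in old PBS than in young PBS (10 of 12, median 0.35, but 8 of 12 and 0.03 under median centring) and mostly lower in old MIT-001 than in old PBS (10 of 12, median -0.24), also with 0 called.

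Assembly factors and carriers were examined next. In old PBS against young PBS, 14 of 19 tested complex IV assembly factors, 4 of 4 of complex V, 3 of 4 of complex II and 3 of 6 of complex III had higher values, and none was called. The count for complex IV factors depended on scaling, with a median log2 fold change of 0.31 that became -0.01 (9 of 19 higher) under median centring. Lyrm7, a chaperone for the Rieske protein, was at 1.81 and 0.19 TPM in young PBS and at 3.85 and 3.67 TPM in old PBS (log2 fold change 1.38, limma adjusted p = 0.224). Ttc19, another complex III factor, was at 11.2 and 8.15 TPM against 17.4 and 19.5 TPM (0.88), and Taco1, an activator of mt-Co1 translation, at 12.1 and 16.4 TPM against 22.9 and 27.7 TPM (0.80). The 3 genes were separate between the groups and at an unadjusted p below 0.05 without passing the adjustment. Cycs, cytochrome c, was at 42.8 and 26.5 TPM in young PBS and at 51.2 and 61.9 TPM in old PBS (0.72), and Slc25a5, an ADP/ATP carrier, at 388 and 355 TPM against 562 and 592 TPM (0.63), again at an unadjusted p below 0.05 only. In old MIT-001 against old PBS, values were lower for 15 of 19 complex IV factors, 6 of 6 of complex III, 4 of 4 of complex V and 2 of 4 of complex II (median 0.04 for complex II, and -0.05 under median centring).

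Regulators of respiratory genes, 9 in number, had levels near those of the median gene. Their median log2(TPM + 1) was 3.73 to 4.46 per library, against 3.72 to 4.20 for all genes. Of 7 tested, 6 had higher values in old PBS than in young PBS (4 under median centring), and 0 were called. Gabpa, the ETS factor, was at 15.3 and 10.0 TPM in young PBS, 21.0 and 31.9 TPM in old PBS and 30.9 and 35.3 TPM in old MIT-001. Gabpb1, its partner, was at 11.7 and 12.5, 21.1 and 21.9, and 17.1 and 19.1 TPM. In both genes the young PBS libraries were the lowest, and the log2 fold changes of old PBS against young PBS were 1.01 and 0.78. Ppargc1a, the coactivator of mitochondrial biogenesis, was at 0.39 and 0.07, 0.20 and 0.29, and 2.03 and 1.48 TPM. It was below a TPM of 1 in the 4 libraries of the PBS groups and passed the filter only through old MIT-001. Its values are therefore given without a test, though it is 1 of the 7 regulators counted here. In old MIT-001 against old PBS, 5 of the 7, none of them Ppargc1a, had lower values (3 of 7 once mitochondrially encoded genes were left out of TPM). The median log2 fold change of the 7, Ppargc1a included, was -0.016.

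**Figure D5:**
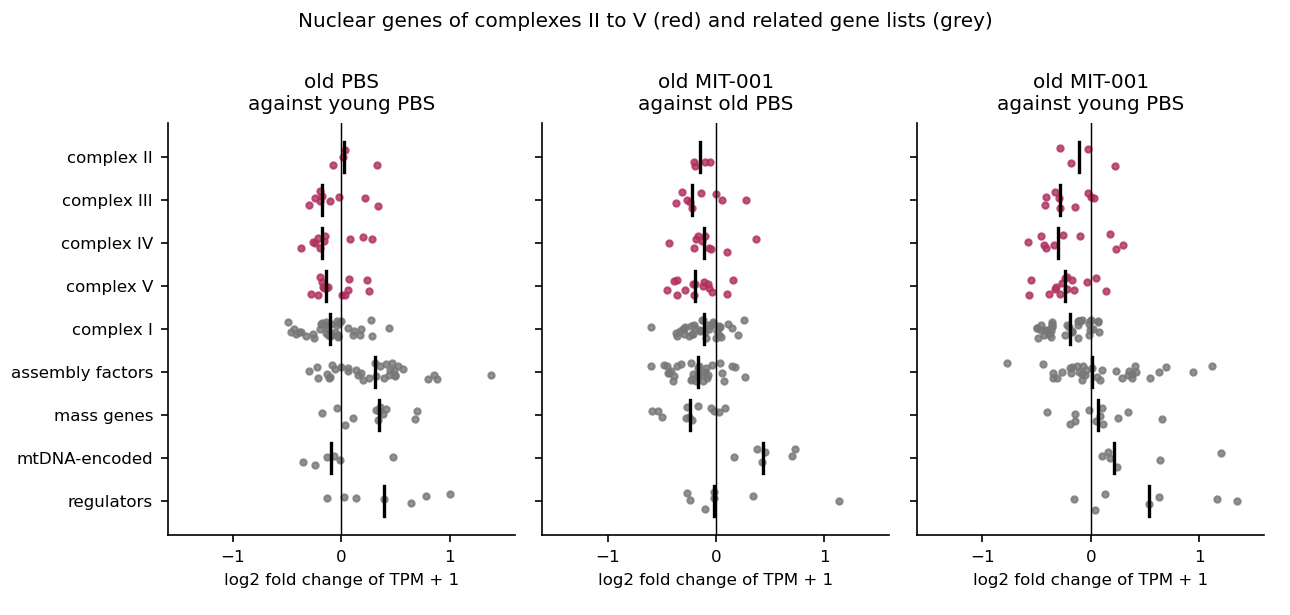
Log2 fold change of TPM + 1 (horizontal axis) of single genes (points) with the list's median (bar), for the nuclear genes of complexes II to V (red) and related lists (grey). In old MIT-001 against old PBS the mitochondrially encoded genes lie above 0 (median 0.44) while most nuclear subunits lie below 0.

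Reads of near-identical copies can be divided between genes. Pseudogenes were sought only under a member's symbol with the ending -ps. Of these, Cox5b-ps reached 15.4 TPM, 3.82% of the level of Cox5b in that library. The others, copies of Atp5k, Atp5l and Atp5f1, did not exceed 0.70 TPM. Copies under other names were not searched, and how shared reads were divided was not tested. Without a stated strand setting, reads from antisense partners cannot be told apart.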

How the data were processed

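Messenger RNA of ovaries was sequenced in 6 libraries, 2 per group. Per the labels' protocols, TRIzol was used to extract RNA and a SMARTer mRNA-seq kit to prepare libraries. The submitters' processing notes name Trimmomatic, HISAT2, StringTie and mm10; their versions, the annotation and any strand setting are not given in the sources here. Per the file headers, the deposited values are in TPM, an abundance scaled for length with a fixed sum per library. The deposited FPKM values are the same abundances before that scaling. TPM divided by FPKM was 1.89 in the first young PBS library and 2.26 to 2.31 in the others. The deposited coverage signal, a mean depth of reads per gene, served only to estimate depth. No read counts were used, and precision was estimated from the spread within all 3 groups and in part from other genes. A gene thus has the same SE in every comparison. Its young PBS libraries count in the SE of old MIT-001 against old PBS too.

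Genes were matched by NCBI Gene ID to symbols of a RefSeq table (GRCm38.p6), and 98 rows per file without a match, holding 0.0145% to 0.0301% of TPM, were left out. All 38 genes matched (Atp5f1 under its newer name Atp5pb). Values were analysed as log2(TPM + 1), which understates changes of low genes, for 16473 genes reaching a TPM of 1 in 2 or more libraries. With limma 3.58.1 (R 4.3.3), 1 mean per group was estimated from all 6 libraries together, with an intensity trend (3 residual and 3.12 prior degrees of freedom), as tested on simulated data. Tests were two-sided with Benjamini-Hochberg adjustment over all genes tested, and a gene counts as called below an adjusted p of 0.05. A group was lower without overlap where both its libraries lay below both of the other's.

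The 38 genes and all gene lists were chosen with earlier results of these data known. Members named with values are the 3 whose fold changes were largest upward and downward in a comparison, the highest and lowest of each complex by mean TPM and the genes for the c subunit; others were named after their values were seen. The search of promoters and the comparison with transcript length were chosen after seeing the data. Alternatives were FPKM, centring on each library's median, quantile normalization, a pseudocount of 0.1, filters at a TPM of 5 or none, TPM without mitochondrially encoded genes, only the 4 libraries compared, no intensity trend, a replicate block and leaving out each library.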

Additional observations from a re-analysis of the deposited data

How the results depend on the processing

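No member was called under any of the 16 alternatives in any comparison, and the smallest adjusted p was 0.0584, without the first young PBS library. Scaling moved the medians most: under median centring the median over all genes of the log2 fold change went from 0.23 to -0.09 (old PBS against young PBS), from 0.03 to -0.06 (old MIT-001 against old PBS) and from 0.24 to -0.17 (old MIT-001 against young PBS). The median of the 38 genes for old PBS against young PBS was -0.30 with FPKM and -0.47 with centring, and lay between -0.17 and -0.0066 when single libraries were left out. For old MIT-001 against old PBS it was -0.24 with centring and lay between -0.22 and -0.083 when single libraries were left out. For old MIT-001 against young PBS it was -0.40 with FPKM and -0.66 with centring. Counts of genes lower without overlap, recomputed under alternatives chosen after seeing the data, were 15 with FPKM (16.4% of all genes), 21 with centring (25.4%) and 8 to 22 with a library left out (13.8% to 29.7%) in old PBS against young PBS. They were 22 to 33 with a library left out (34.6% to 36.7%) in old MIT-001 against old PBS, and 31 with centring (28.7%) and 19 to 30 with a library left out (12.03% to 25.2%) in old MIT-001 against young PBS. With quantile normalization these counts were 6 (19.3% of all genes), 19 (29.5%) and 15 (21.6%) in the same order of comparisons. Centring reversed Cox7c in old PBS against young PBS (-0.041) and, in old MIT-001 against young PBS, Cox6c (-0.11), Cox7c (-0.18) and Sdhd (-0.19), and the cause was not tested. With single libraries left out, Atp5k (-0.77 to 0.22) and Cox7c (-0.24 to 0.80) in old PBS against young PBS, Atp5l (-0.029 to 0.35) in old MIT-001 against old PBS, and Cox6c (-0.32 to 0.92) and Cox7c (-0.29 to 0.75) in old MIT-001 against young PBS took either sign. Of 288 values of named genes, 10 were reversed and 278 kept their direction and side of the threshold. Correlations of deviations between libraries of the same replicate number were 0.01, 0.24 and 0.18 over the 3 pairs of groups. They cannot settle whether the numbers pair the libraries, which the labels do not state. With the replicate number as a block 0 members were called, as without it. With 2 libraries per group, 95% intervals of a log2 fold change had half-widths of 0.47 to 1.04.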
